A study of Mus musculus with 18 samples.

Results

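Dividing cells need the proteins that copy and separate chromosomes, and the transcripts of 38 mouse genes that make or control these proteins were examined in demyelinated white matter with and without TREM2. With earlier results of these data known, the 38 genes were listed by function. They comprise proliferation markers, cyclins and a cyclin-dependent kinase, the transcription factor E2f1, replication genes, nucleotide synthesis genes, mitotic control genes and genes of the spindle and kinetochore. A gene was measured through the probe sets (groups of array probes read as 1 value) annotated to its symbol alone or to an older synonym, and its value in an array is the median log2 signal of those probe sets. Of the 38 genes, 37 had such a probe set, among 20352 genes in all, and Ccnb1 had none. These 37 genes rested on 554 probe sets, 3 to 46 per gene. Of them 33 passed a filter on mean signal over all arrays and were tested among 16281 genes. Bub1, Cenpe, Kif2c and Plk1 were dimmer than the filter level, a log2 of 3.41, and are given apart.

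RNA came from the caudal corpus callosum, a white matter tract, of C57BL/6 mice, all fed a diet holding 0.2% cuprizone (CPZ), a chelator of copper under which oligodendrocytes die and myelin is lost. The 4 groups were Trem2 knockout (KO, TREM2-/-) at 12 weeks with 6 arrays, wild type (WT) at 12 weeks with 5, KO at 6 weeks with 3 and WT at 6 weeks with 4. TREM2 is a surface receptor of myeloid cells, microglia included. From the labels a stage may be mouse age or feeding time, and the 18 arrays include none of mice without CPZ. The labels do not tie arrays to separate mice. The p-values therefore reflect only how far these samples spread, in part perhaps technically. In bulk tissue, fewer cells of a type and less RNA per cell cannot be told apart.

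Trem2 checked the genotype labels. Its 12 week average was 5.27 ± 0.30 in KO and 7.36 ± 0.48 in WT (log2 signal, SD, n = 6 and 5), and its 6 week average 5.80 ± 0.33 in KO and 7.29 ± 0.83 in WT (n = 3 and 4). Every KO array lay below every WT array at both stages. The difference passed the test at 12 weeks (adjusted p = 0.00251) and not at 6 weeks (adjusted p = 0.247). Of the 8 listed mature oligodendrocyte markers, 7 were bright enough to be tested.

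As background, cells enter the division cycle when D-type cyclins and their kinases release E2F transcription factors, which switch on the genes for replication. The MCM helicase then unwinds DNA, PCNA clamps the polymerases to it, and ribonucleotide reductase, thymidylate synthase and thymidine kinase supply nucleotides. Mitotic kinases, kinesins and kinetochore proteins separate the chromosomes, and the anaphase-promoting complex ends mitosis. In brain white matter, oligodendrocyte precursors and activated microglia are the cells best known to divide after CPZ.

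Many such genes share short promoter elements. E2F factors bind E2F sites, the factor NF-Y binds the CCAAT box, and the cell cycle genes homology region (CHR) is bound by complexes that repress mitotic genes in resting cells. RefSeq (build GRCm38.p6) gave a promoter for 31 of the 38 genes, and the 250 bases before the annotated start were searched on both strands. The CHR was searched as TTTGAA, the CCAAT box as CCAAT, and the E2F site as any of 4 spellings, which are TTCCCGC, then the spelling TTCGCGC, then the spelling TTGCCGC and then the spelling TTGGCGC. The CCAAT box was in 24 of 31 promoters (77.4%), against 34.5% of all 27025 promoters and 35.4% of the 12701 promoters of genes tested. The CHR letters were in 9 (29%), against 16.3% of all promoters and 11% of those of genes tested. E2F letters were in 8 (25.8%), against 8.03% and 12.7%. A CCAAT box overlapped E2F letters in 1 of the 31 promoters, and no other pair of motifs overlapped there. Mki67 and Cdk1 alone held all 3 motifs, and 6 genes held none. A match is a description of letters and not a shown binding site.

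Below are the 250 bases before the start of Mki67 and Cdk1, which held all 3 motifs, and of Cenpk and Rrm2, which had the interaction values farthest above and below 0 among the tested members. Each reads 5′ to 3′ on the gene's own strand, and capitals mark motif matches on either strand. Mki67 lies at chr7:135716380-135716629 (minus strand), Cdk1 at chr10:69352913-69353162 (minus), Cenpk at chr13:104228361-104228610 (plus) and Rrm2 at chr12:24708004-24708253 (plus).
Mki67: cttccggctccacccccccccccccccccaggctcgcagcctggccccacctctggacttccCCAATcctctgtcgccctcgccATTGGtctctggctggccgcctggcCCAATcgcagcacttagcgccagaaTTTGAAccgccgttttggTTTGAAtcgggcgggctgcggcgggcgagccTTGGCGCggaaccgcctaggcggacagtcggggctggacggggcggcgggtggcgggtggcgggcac
Cdk1: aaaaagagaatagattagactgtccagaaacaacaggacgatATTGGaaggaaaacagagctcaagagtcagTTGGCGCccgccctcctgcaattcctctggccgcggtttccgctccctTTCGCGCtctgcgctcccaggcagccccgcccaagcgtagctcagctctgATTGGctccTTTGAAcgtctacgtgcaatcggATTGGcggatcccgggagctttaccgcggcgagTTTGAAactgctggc
Cenpk: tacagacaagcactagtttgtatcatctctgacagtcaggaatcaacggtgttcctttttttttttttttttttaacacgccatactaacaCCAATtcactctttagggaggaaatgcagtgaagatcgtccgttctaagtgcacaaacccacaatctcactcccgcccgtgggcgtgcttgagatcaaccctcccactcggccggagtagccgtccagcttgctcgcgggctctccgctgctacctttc
Rrm2: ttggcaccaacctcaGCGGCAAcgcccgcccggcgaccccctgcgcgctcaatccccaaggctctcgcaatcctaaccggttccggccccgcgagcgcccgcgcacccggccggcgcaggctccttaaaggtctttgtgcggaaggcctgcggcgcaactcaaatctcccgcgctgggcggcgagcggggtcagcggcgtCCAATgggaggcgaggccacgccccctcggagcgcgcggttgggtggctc
Cenpk held a CCAAT box and neither other motif, whereas Rrm2 held a CCAAT box and E2F letters.

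Averaged over the 33 tested genes, the 4 groups had nearly the same level. The score of an array is the mean over genes of the log2 value less that gene's mean over arrays. It ran from −0.05 to 0.09 in KO at 12 weeks and from −0.09 to 0.23 in WT at 12 weeks. The 6 week scores ran from −0.11 to 0.14 in KO and from −0.20 to 0.17 in WT. Group means lay between −0.02 and 0.02, and the ranges of all 4 groups overlapped. Within groups the SD of a tested cell cycle gene was 0.42 at the median, from 0.24 for Pcna to 0.85 for Tyms, against 0.36 over all genes tested.

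**Figure D1:**
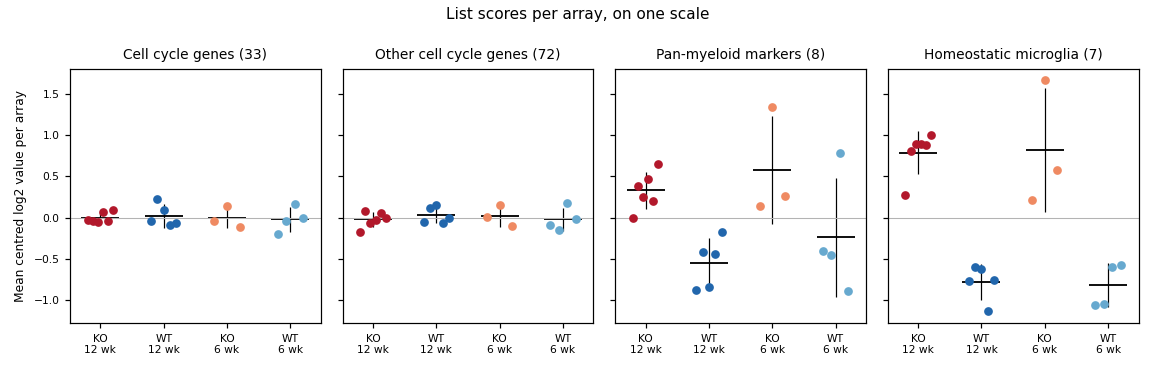
Mean score of the 33 tested cell cycle genes in each array (log2, centred per gene), by genotype and stage, beside the scores of other cell cycle genes and of pan-myeloid and homeostatic microglia markers. Bars are group means and vertical lines the SD. The cell cycle scores of all 4 groups overlap around 0, while the homeostatic microglia scores of KO arrays lie above those of WT arrays at both stages.

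No cell cycle gene passed the test in any comparison, at an adjusted p of 0.05 over all 16281 genes (limma, Benjamini-Hochberg). For KO against WT at 12 weeks 0 of 33 passed, where 0.43% of all genes did (0.356% higher and 0.0737% lower in KO). At 6 weeks 0 of 33 passed, where 0.043% of all genes did. For 12 against 6 weeks 0 of 33 passed in KO and 0 of 33 in WT, where 0.00614% and 0.0184% of all genes did. The genotype by stage interaction, which is the KO minus WT difference at 12 weeks less that at 6 weeks, called 0 of 33 members and 0% of all genes. Among the 33 tested members, the smallest adjusted p in the 5 comparisons was 0.204, for Cenpk. Plk1, which was below the filter, had an adjusted p of 0.146 at 12 weeks in the fit without a filter.

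At an unadjusted p under 0.05, between 1 and 5 members were called in each comparison. At 12 weeks 2 genes were higher in KO than in WT (Mcm6 and Cenpk) and 3 lower (Ccnd1, Rrm2 and Nusap1), 15.2% of members against 11.1% of all genes (6.87% higher and 4.23% lower). At 6 weeks Mcm3 was higher and Cenpk lower in KO, 6.06% against 5.44% (3.26% higher and 2.17% lower). For 12 against 6 weeks in KO it was Ccne1, Tyms and Cenpk higher and Bub1b and Nusap1 lower, 15.2% against 7.49% (4.7% higher and 2.78% lower). In WT it was Rrm2 alone, higher at 12 weeks, 3.03% against 8.48% (3.96% higher and 4.51% lower). For the interaction it was Cenpk higher and Rrm2 and Nusap1 lower, 9.09% against 5.19% (2.87% higher and 2.32% lower). With counts this small, 1 gene moves a share of members by 3.03 percentage points.

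The intervals give the sizes of difference that these arrays allow. The 95% interval lay wholly within a 2-fold difference either way for 29 of 33 members at 12 weeks between genotypes (87.9%, against 85.6% of all genes). At 6 weeks this held for 23 of 33 (69.7%, against 75.4%). Between stages it held for 24 in KO (72.7%, against 79% of all genes) and 25 in WT (75.8%, against 81%). For the interaction it held for 11 (33.3%, against 50.7%). The median difference over members was −0.06 between genotypes at 12 weeks and 0.05 at 6 weeks, against 0.02 and −0.00 over all genes. It was −0.15 between stages in KO and 0.08 in WT, against 0.02 and 0.01. Whatever their p, 13 of 33 members were higher in KO at 12 weeks, where 52.4% of all genes were, and 20 of 33 at 6 weeks, where 49.6% were. At 12 against 6 weeks 11 of 33 were higher in KO and 17 of 33 in WT, where 52.2% and 51.2% of all genes were. The interaction was above 0 for 15 of 33, where it was for 52.1% of all genes.

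**Figure D2:**
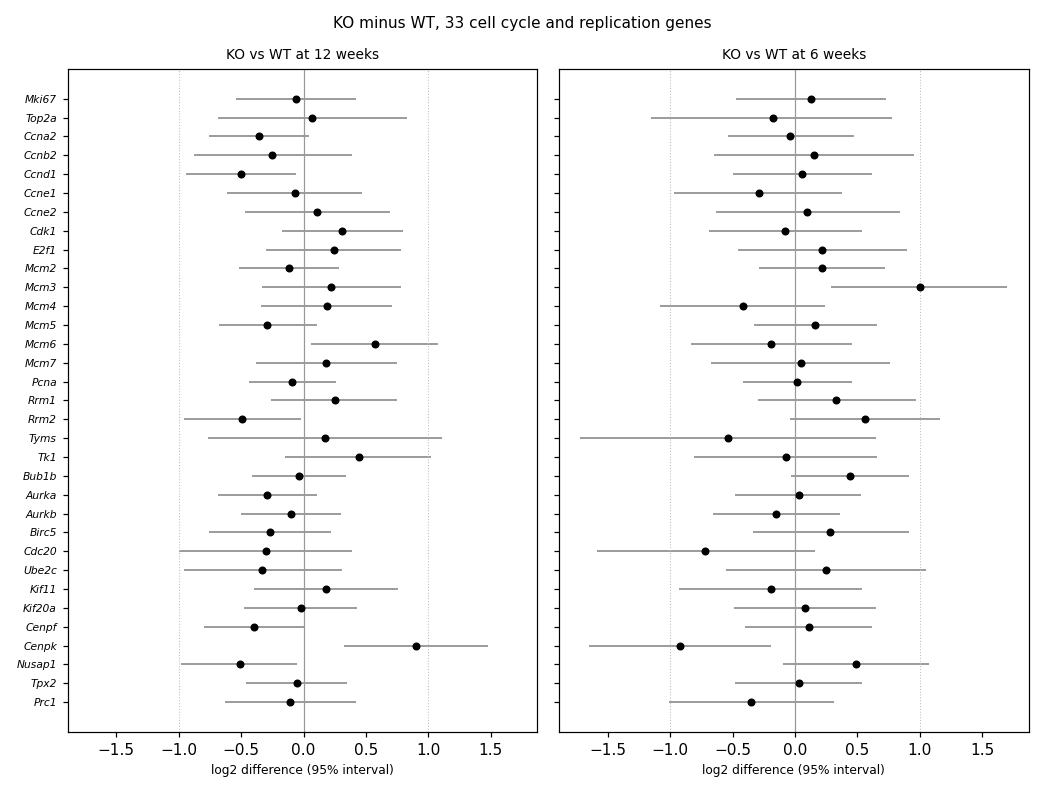
Log2 difference of KO minus WT for each tested cell cycle gene, at 12 weeks and at 6 weeks, with 95% intervals from the limma fit. Most intervals cross 0, and Cenpk lies at 0.90 at 12 weeks and at −0.92 at 6 weeks.

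Mki67, the gene of the Ki-67 antigen found in cycling nuclei, had genotype differences close to 0. At 12 weeks it ran from 3.57 to 3.98 in KO with a median of 3.79, and had 3.55, 4.03, 4.60, 3.56 and 3.37 in WT. Mki67 at 6 weeks had 3.65, 4.51 and 3.85 in KO and 3.81, 3.62, 4.53 and 3.52 in WT. The groups overlapped at both stages. The KO minus WT difference was −0.06 ± 0.23 (SE) at 12 weeks (95% interval −0.54 to 0.42) and 0.13 ± 0.29 at 6 weeks (−0.47 to 0.73). Of its 16 probe sets, 8 were higher and 8 lower in KO at each stage, and they differed widely. They ran from −0.7 to 1.26 at 12 weeks, with the brightest at −0.35. At 6 weeks they ran from −1.2 to 1.62, with the brightest at 0.93.

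Top2a encodes the topoisomerase that untangles sister DNA strands. It ran from 3.23 to 4.79 in KO at 12 weeks with a median of 3.83, and had 3.52, 4.19, 4.43, 3.76 and 3.42 in WT. Top2a at 6 weeks had 4.16, 4.16 and 3.92 in KO and 3.24, 3.43, 5.49 and 4.90 in WT. The WT arrays of 6 weeks were the most spread, and all 4 groups overlapped. The genotype difference was 0.07 ± 0.36 at 12 weeks (−0.69 to 0.83) and −0.18 ± 0.46 at 6 weeks (−1.15 to 0.78). For the gene medians, a 2-fold difference at 6 weeks is thus inside the interval for Top2a but not for Mki67.

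Among the cyclins, which activate the kinases of the cycle, Ccnd1 stood out at 12 weeks. Ccnd1 encodes cyclin D1, which couples growth signals to entry into the cycle. It ran from 7.24 to 7.79 in KO with a median of 7.68, and had 7.62, 7.81, 8.42, 8.17 and 8.50 in WT. Most WT arrays were above all KO arrays, and the lowest WT array was inside the KO range. The difference was −0.50 ± 0.21 (−0.94 to −0.06), 1.42-fold lower in KO, with adjusted p = 0.379, and 7 of 8 probe sets were lower in KO. At 6 weeks Ccnd1 had 7.69, 8.52 and 7.44 in KO and 7.59, 7.58, 8.21 and 7.93 in WT, a difference of 0.06 ± 0.27. The interaction of −0.56 ± 0.34 did not pass (adjusted p = 0.957), although all 8 probe sets had it below 0.

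Ccne1, which encodes cyclin E1 of replication onset, had its lowest p between stages. In KO it ran from 4.67 to 6.08 at 12 weeks and from 4.58 to 5.10 at 6 weeks. It had 5.99, 5.15, 4.87, 5.89 and 6.10 in WT at 12 weeks and 5.62, 5.06, 5.05 and 5.02 in WT at 6 weeks. The 12 minus 6 week difference was 0.64 ± 0.30 in KO (adjusted p = 0.665) and 0.41 ± 0.28 in WT (adjusted p = 0.716). Neither passed. The mitotic cyclins Ccna2 (−0.36 ± 0.19) and Ccnb2 (−0.25 ± 0.30), their kinase Cdk1 (0.31 ± 0.23) and cyclin E2 gene Ccne2 (0.11 ± 0.28) had intervals that included 0 between genotypes at 12 weeks. At 6 weeks those 4 lay between −0.08 and 0.15. E2f1, the factor that drives replication genes, was 0.24 ± 0.26 at 12 weeks and 0.22 ± 0.33 at 6 weeks.

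The replication genes Mcm2 to Mcm7 encode the 6 subunits of 1 helicase, and they did not shift together. Between genotypes at 12 weeks their differences ran from −0.29 (Mcm5) to 0.57 (Mcm6), with Mcm3, Mcm4, Mcm6 and Mcm7 above 0. At 6 weeks they ran from −0.42 (Mcm4) to 1.00 (Mcm3), with Mcm2, Mcm3, Mcm5 and Mcm7 above 0. No subunit passed at either stage.

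Mcm6 at 12 weeks ran from 5.21 to 5.76 in KO with a median of 5.54, and had 4.88, 5.55, 5.37, 4.47 and 4.42 in WT. KO arrays were mostly higher, and 2 WT arrays lay inside the KO range. The difference was 0.57 ± 0.24 (0.06 to 1.08, adjusted p = 0.396), and 14 of 17 probe sets were higher in KO. At 6 weeks Mcm6 had 4.92, 5.43 and 4.88 in KO and 6.12, 4.87, 5.06 and 4.99 in WT, a difference of −0.19 ± 0.31. The interaction was 0.75 ± 0.39 (adjusted p = 0.926).

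Mcm3 separated the genotypes at 6 weeks, with 4.64, 5.40 and 4.71 in KO and 4.04, 3.30, 4.61 and 3.73 in WT. Every KO array was above every WT array. The difference was 1.00 ± 0.34 (0.29 to 1.70), 1.99-fold, and did not pass (adjusted p = 0.687). Of 16 probe sets 14 were higher in KO, but the brightest was at −0.19. At 12 weeks Mcm3 ran from 3.82 to 5.41 in KO and from 4.00 to 4.77 in WT, a difference of 0.22 ± 0.27.

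Pcna was the brightest and steadiest member. It ran from 8.89 to 9.49 in KO at 12 weeks with a median of 9.20, and had 9.12, 9.47, 9.12, 9.34 and 9.35 in WT. Its 6 week values were 9.11, 9.07 and 8.77 in KO and 9.03, 8.43, 9.37 and 9.03 in WT. Between genotypes it was −0.09 ± 0.17 at 12 weeks (−0.44 to 0.26) and 0.02 ± 0.21 at 6 weeks (−0.42 to 0.46), intervals well inside a 2-fold difference. Between stages in WT it was 0.32 ± 0.18 higher at 12 weeks, with all 10 probe sets above 0, and did not pass (adjusted p = 0.651).

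Of the nucleotide synthesis genes, Rrm2 encodes the small subunit of ribonucleotide reductase that is made mainly in dividing cells. Rrm2 at 12 weeks ran from 3.59 to 4.43 in KO with a median of 4.06, and had 4.53, 5.12, 3.98, 4.88 and 3.98 in WT. Its 6 week values were 4.21, 4.34 and 4.36 in KO and 3.30, 4.16, 3.86 and 3.65 in WT. The groups overlapped at 12 weeks, and at 6 weeks every KO array was above every WT array. The genotype difference was −0.49 ± 0.23 at 12 weeks (adjusted p = 0.435) and 0.56 ± 0.29 at 6 weeks (adjusted p = 0.94).

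The interaction for Rrm2 was −1.05 ± 0.36 (−1.81 to −0.29, adjusted p = 0.839). Between stages in WT it was 0.75 ± 0.25 higher at 12 weeks (0.23 to 1.28), 1.69-fold, with adjusted p = 0.388. Its probe sets differed in direction. At 12 weeks 3 of 9 were higher and 6 lower in KO, within −0.41 to 0.56, so the difference of gene medians lay outside the range of the single probe sets. The brightest probe set had −0.08 between stages in WT and 0.09 for the interaction.

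Tyms, the thymidylate synthase gene, ran from 3.99 to 5.64 in KO at 12 weeks with a median of 4.87, and had 3.91, 3.83 and 2.95 in KO at 6 weeks. Every KO array of 12 weeks was above every KO array of 6 weeks. The difference in KO was 1.23 ± 0.53 (0.13 to 2.33), 2.35-fold, with adjusted p = 0.63. In WT it ran from 3.76 to 5.22 at 12 weeks and from 2.97 to 5.97 at 6 weeks, with overlap. The difference in WT was 0.52 ± 0.50 (adjusted p = 0.807). Tyms rested on 3 probe sets and varied most of all members, and its brightest probe set was at −0.02 between stages in KO. Rrm1, the large reductase subunit, was 0.25 ± 0.24 between genotypes at 12 weeks and 0.33 ± 0.31 at 6 weeks. Tk1, a salvage kinase of thymidine, was 0.44 ± 0.28 and −0.07 ± 0.35.

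All 6 tested genes of mitotic control were lower in KO at 12 weeks, from −0.33 (Ube2c) to −0.04 (Bub1b) with a median of −0.28, and none passed. They are Aurka and Aurkb, the Aurora kinases, Birc5, the survivin of the Aurora B complex, Bub1b of the spindle checkpoint, and Cdc20 and Ube2c of the anaphase-promoting pathway. Over all genes 52.4% were higher in KO in that comparison. Without the WT arrays of 12 weeks the mean of Birc5 would be under the filter level. Birc5 is thus in this count only through the group where its mean was highest. At 6 weeks 4 of the 6 were higher in KO, from −0.72 (Cdc20) to 0.44 (Bub1b). The score over these genes ran from −0.42 to 0.28 in KO and from −0.07 to 0.33 in WT at 12 weeks, and the groups overlapped.

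Bub1b at 6 weeks had 4.04, 4.09 and 4.10 in KO and 3.72, 3.72, 3.67 and 3.46 in WT, with no overlap. At 12 weeks it ran from 3.31 to 3.84 in KO with a median of 3.56, below all KO arrays of 6 weeks, and had 3.29, 3.05, 3.91, 3.75 and 4.10 in WT. The genotype difference at 6 weeks was 0.44 ± 0.23 (adjusted p = 0.94), and the 12 minus 6 week difference in KO was −0.50 ± 0.21 (adjusted p = 0.627). Of 23 probe sets, 15 were higher in KO at 6 weeks, with a median of 0.21 and the brightest at 0.09. Between stages in KO 17 were lower at 12 weeks, with the brightest at −0.10.

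Plk1, the polo-like kinase that starts mitosis, was dimmer than the filter and was fitted only with no filter. Plk1 at 12 weeks ran from 2.16 to 3.41 in KO with a median of 2.60, and had 3.87, 2.97, 4.06, 3.82 and 3.32 in WT. KO arrays were mostly below WT arrays, with some overlap. The difference was −0.89 ± 0.24 (−1.39 to −0.39, adjusted p = 0.146 over all genes without a filter), and at 6 weeks −0.61 ± 0.30 (adjusted p = 0.925). Its 6 week values were 3.04, 2.79 and 2.87 in KO and 3.36, 3.82, 3.11 and 3.75 in WT, with no overlap. The other dim genes were Bub1 (−0.22 ± 0.20), Cenpe (0.04 ± 0.20) and Kif2c (−0.17 ± 0.19) at 12 weeks. Bub1 is a checkpoint kinase, Cenpe a kinetochore motor and Kif2c a microtubule depolymerase, and none passed in any comparison.

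Among spindle and kinetochore genes, Cenpk had the smallest p of the 33 tested members between genotypes at 12 weeks, between stages in KO and for the interaction. It encodes a subunit of the inner kinetochore. At 12 weeks it ran from 3.23 to 4.93 in KO with a median of 4.12, and had 3.01, 3.35, 3.32, 3.18 and 3.05 in WT. Its 6 week values were 2.81, 2.29 and 2.60 in KO and 4.13, 3.62, 3.23 and 2.99 in WT. KO arrays lay at or above the WT range at 12 weeks, with 1 KO array inside it, and below all WT arrays at 6 weeks.

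The Cenpk difference of KO minus WT was 0.90 ± 0.28 at 12 weeks (0.32 to 1.48), 1.86-fold, with adjusted p = 0.204. At 6 weeks it was −0.92 ± 0.35 (−1.65 to −0.19, adjusted p = 0.761). Between stages in KO it was 1.51 ± 0.32 (0.84 to 2.19), 2.86-fold, with adjusted p = 0.204, and in WT −0.31 ± 0.31. The interaction was 1.82 ± 0.45 (adjusted p = 0.645).

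Probe sets of Cenpk differed in size. All 13 were higher in KO at 12 weeks, from 0.10 to 2.45, and 11 of 13 were lower at 6 weeks. The brightest gave 0.14 between genotypes at 12 weeks, 0.19 at 6 weeks, −0.22 between stages in KO and −0.05 for the interaction, so the sign turned in all but the first of these. The means of KO at 6 weeks (2.57) and of WT at 12 weeks (3.18) were under the filter level, so the size of these differences is uncertain. WT at 6 weeks (3.49) was just above that level, and KO at 12 weeks was at 4.08. Without the KO arrays of 12 weeks the mean of Cenpk would be under the filter level, so it was tested only through that group. The comparisons in which it had the smallest p of the members all use that group. Ependymal markers were also higher in KO at 12 weeks, 5 of 5 with a median of 1.04, none passing, with scores from −0.31 to 1.47 in KO and −0.81 to 0.26 in WT. So were all tested markers of choroid plexus (5, median 0.95), astrocytes (8, median 0.44) and homeostatic microglia (7, median 1.66), but only 1 of 8 oligodendrocyte precursor markers. Over KO replicates 1 to 6 of 12 weeks Cenpk was at 4.93, 4.68, 3.42, 3.23, 3.78 and 4.47. The ependymal scores of these arrays, in the same order, were 0.06, −0.31, 0.32, 1.16, 1.47 and 0.50. The part of any cell type in the Cenpk values was not tested.

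**Figure D3:**
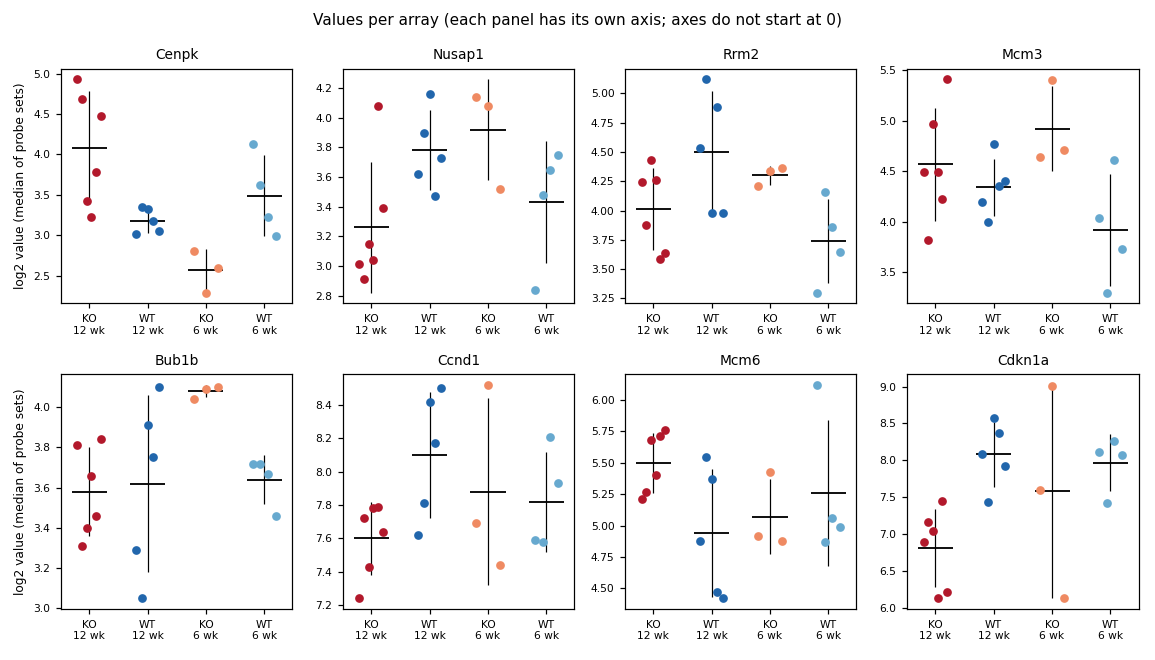
Log2 signal of selected cell cycle genes in every array, by genotype and stage, for 7 members and the inhibitor gene Cdkn1a, with horizontal bars for group means and vertical lines for SD. Each panel has its own axis, which does not start at 0. Cenpk in KO at 6 weeks (2.29 to 2.81) lies below all WT arrays of that stage.

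Nusap1, which binds and bundles spindle microtubules, at 12 weeks ran from 2.91 to 4.08 in KO with a median of 3.09, and had 3.62, 3.90, 4.16, 3.47 and 3.73 in WT. At 6 weeks it had 4.14, 4.08 and 3.52 in KO and 2.84, 3.48, 3.65 and 3.75 in WT. All but 1 KO array of 12 weeks lay below the WT arrays, and at 6 weeks the groups overlapped. The genotype difference was −0.51 ± 0.22 at 12 weeks (adjusted p = 0.396) and 0.49 ± 0.28 at 6 weeks (adjusted p = 0.963). Between stages in KO it was −0.65 ± 0.26 (adjusted p = 0.605), and the interaction was −1.0 ± 0.36 (adjusted p = 0.839). At 12 weeks 9 of 13 probe sets were lower in KO, with a median of −0.08 over probe sets. For the interaction 6 were above and 7 below 0, within −0.85 to 0.51. The interaction of gene medians thus lay outside the range of the single probe sets. Between stages in KO the median over probe sets was −0.10, and the brightest was at −0.69.

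Prc1, which bundles microtubules of the late spindle, had 3.42, 3.42, 3.86, 3.75 and 3.17 in WT at 12 weeks and 3.30, 3.95, 4.78 and 3.93 in WT at 6 weeks, with overlap. The difference between stages was −0.47 ± 0.28 (adjusted p = 0.654). Cenpf, a large kinetochore protein gene, was −0.40 ± 0.19 between genotypes at 12 weeks (adjusted p = 0.46) and 0.11 ± 0.24 at 6 weeks. Its mean lay just above the filter level and would be under it without the WT arrays of 12 weeks. The kinesins Kif11 and Kif20a and the spindle assembly factor Tpx2 lay between −0.05 and 0.18 at 12 weeks and between −0.19 and 0.08 at 6 weeks.

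**Figure D4:**
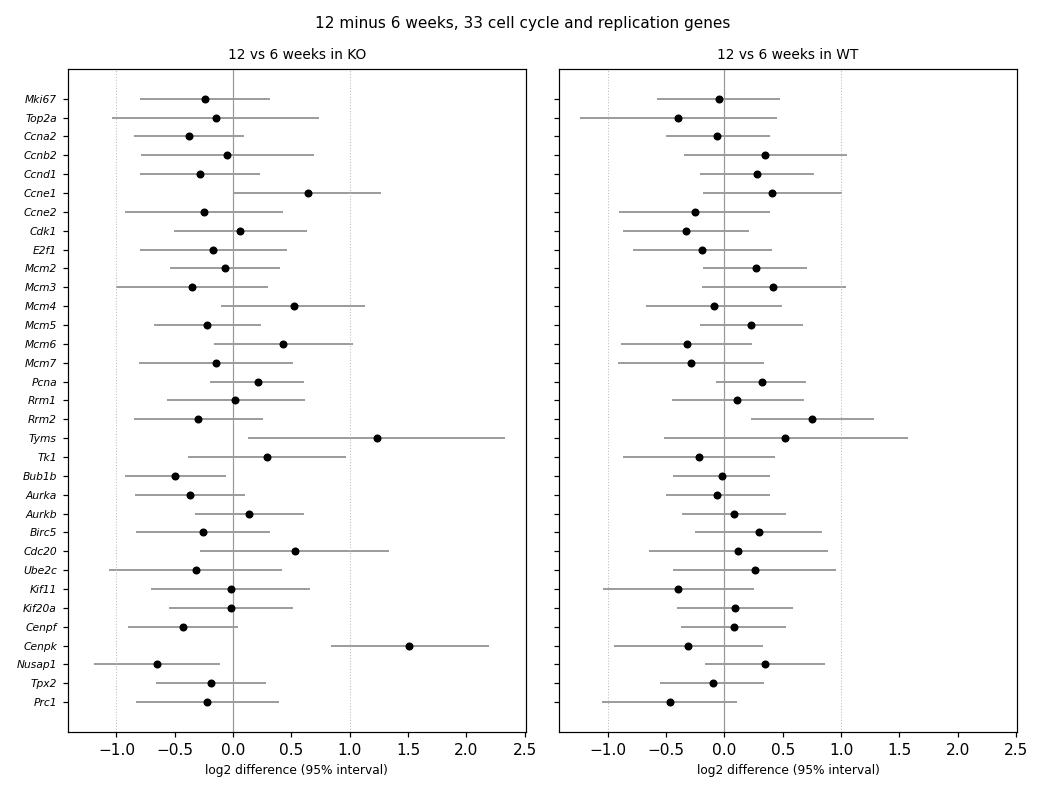
Log2 difference of 12 minus 6 weeks for each tested cell cycle gene, in KO and in WT, with 95% intervals from the limma fit. Cenpk at 1.51 and Tyms at 1.23 are the highest in KO, and Rrm2 at 0.75 is the highest in WT.

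Groups without overlap were few among the 33 tested members. Between genotypes at 12 weeks no member separated the groups, against 2.46% of all genes (1.7% higher and 0.762% lower in KO). At 6 weeks 3 did so upward in KO (Mcm3, Rrm2 and Bub1b) and Cenpk downward, 12.1% against 5.07% (2.71% higher and 2.36% lower). Between stages in KO, Tyms and Cenpk separated upward and Bub1b downward at 12 weeks, 9.09% against 3.91% (2.28% higher and 1.62% lower). In WT none separated, against 2.49% (1.19% higher and 1.31% lower).

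A further 91 cell cycle genes were listed from textbook knowledge, also with earlier results of these data known, and 72 were tested. None passed in any of the 5 comparisons. At an unadjusted p under 0.05, 6 of 72 (8.33%, against 11.1% of all genes) were called between genotypes at 12 weeks and 8 (11.1%, against 5.44%) at 6 weeks. Between stages 2 (2.78%, against 7.49%) were called in KO and 7 (9.72%, against 8.48%) in WT, and for the interaction 6 (8.33%, against 5.19%).

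Of these, Cdkn1a had the smallest adjusted p. It encodes p21, an inhibitor of cyclin-dependent kinases. At 12 weeks it ran from 6.13 to 7.45 in KO with a median of 6.97, and had 8.09, 7.43, 8.57, 8.37 and 7.92 in WT. The highest KO array, at 7.45, lay just above the lowest WT array, at 7.43. The difference was −1.26 ± 0.37 (−2.04 to −0.49), 2.40-fold lower in KO, with adjusted p = 0.173, and 6 of 6 probe sets were lower. At 6 weeks Cdkn1a had 7.60, 9.01 and 6.13 in KO and 8.11, 7.42, 8.26 and 8.07 in WT, a difference of −0.39 ± 0.47 (adjusted p = 0.999). The 12 week difference passed in 3 of its 28 alternative fits, with adjusted p = 0.0251 when only the 12 week arrays were fitted, 0.0464 without KO replicate 2 of 6 weeks and 0.0391 without that array and WT replicate 4 of 6 weeks.

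The other named genes of this list did not pass. Cks1b, a small subunit of cyclin-dependent kinases, was −1.28 ± 0.42 between genotypes at 6 weeks (adjusted p = 0.654) and 1.31 ± 0.39 between stages in KO (adjusted p = 0.456). The phosphatase gene Cdc25b was 0.83 ± 0.20 between stages in WT (adjusted p = 0.224), and the mitotic entry gene Cdca3 was 0.86 ± 0.25 (adjusted p = 0.317). Foxm1, a factor that drives mitotic genes, was −0.82 ± 0.24 in the same comparison (adjusted p = 0.32). The repressor E2f8 was −0.57 between genotypes at 12 weeks (adjusted p = 0.37), and Incenp of the Aurora B complex was 0.58 at 6 weeks (adjusted p = 0.844). Between stages in KO, the centrosome kinase gene Nek2 was −0.58 (adjusted p = 0.665) and the clamp loader gene Rfc3 was 0.46 (adjusted p = 0.667).

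Markers of cells that could divide were read beside these values. Homeostatic microglia markers were higher in KO at 12 weeks, with 5 of 7 passing where 0.43% of all genes did, among them Siglech at 2.38 and P2ry12 at 1.87. At 6 weeks 3 of 7 passed, where 0.043% of all genes did. Their score ran from 0.27 to 1.00 in KO and from −1.14 to −0.60 in WT at 12 weeks, and from 0.22 to 1.67 in KO and −1.06 to −0.58 in WT at 6 weeks. Of 8 pan-myeloid markers, 7 were higher in KO at each stage, and Ptprc was lower, at −0.31 at 12 weeks and −0.57 at 6 weeks. At 12 weeks 2 passed, Itgam at 1.76 and Laptm5 at 1.54, and at 6 weeks 0 passed. Their score ran from 0.00 to 0.65 in KO and from −0.88 to −0.17 in WT at 12 weeks. At 6 weeks it ran from 0.14 to 1.34 in KO and from −0.89 to 0.79 in WT. Oligodendrocyte precursor markers did not pass, with scores from −0.44 to 0.01 in KO and −0.27 to 0.24 in WT at 12 weeks, and from −0.12 to 0.41 in KO and −0.06 to 0.77 in WT at 6 weeks. The part of these cell types in the cell cycle values was not tested.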

How the data were processed

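RNA was extracted on silica columns, amplified with the NuGEN WT-Ovation Pico kit and biotin-labelled, per the labels' protocols, and each of 18 samples gave 1 one-colour array. The values are the log2 probe-set signals that the authors deposited, 241576 probe sets with values from 0.732 to 13.674. Background correction, normalization and probe summary are not given in the sources used here. Since medians per array spanned only 5.26 to 5.41, the values were not normalized again. Background signals were not used here, so no gene is called absent, and the number of arrays limits the precision.

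Of the probe sets, 212097 had 1 gene symbol in the platform annotation, 4475 had several and 25004 had none, and the first kind was used. Of the symbols, 2742 were updated through a RefSeq table of GRCm38.p6 and 53 were not found in it. A gene's value is the median over its probe sets, 8 at the median. The 20% of genes with the lowest mean (log2 under 3.41) were dropped, and 16281 were tested.

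Genotype and stage labels define the groups. A limma model (3.58.1, R 4.3.3) of 4 group means was fitted to all 18 arrays, with 14 residual and 5.6 prior degrees of freedom, giving 5 two-sided comparisons with Benjamini-Hochberg adjustment at 0.05 over all genes tested. A gene passed only by this test. The members and other lists were chosen with earlier results of these data known. Values per array are given for the 4 members of smallest p in each comparison, and for Mki67, Top2a and Plk1, which were added after their values were seen. Other cell cycle genes are named where among the 3 smallest p. Replicate numbers were not taken to pair samples, since not every same-numbered pair had deviations from its group means that correlated above 0.1. Between genotypes these correlations were 0.025 to 0.099 at 12 weeks and −0.359 to 0.241 at 6 weeks, and between stages 0.043 to 0.199 in KO and −0.034 to 0.094 in WT. Alternatives covered the filter, normalization, the value of a gene, the spread, array weights, the arrays fitted, a replicate block and leaving out each array. The steps were tested on simulated data. Tables and plots were made in Python 3.11.15 using pandas 2.3.3, numpy 2.4.6 and, for plots, matplotlib 3.10.9.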

Additional observations from a re-analysis of the deposited data

Results flagged for a closer look

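Of 42 sets of values (a gene in a group of 4 to 6 arrays), 2 held an array far from the others by Dixon's criterion, which chance alone meets in about 1 of 20. Both were the same array, WT replicate 1 of 6 weeks. Ccne1 stood at 5.62 there, against 5.02 to 5.06 in the other WT arrays of that stage. Mcm6 stood at 6.12 there, against 4.87 to 5.06. Without that array the 12 minus 6 week difference of Ccne1 in WT was 0.56 (adjusted p = 0.534), and the interaction of Mcm6 was 0.47 (adjusted p = 0.937).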

How the results depend on the processing

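No cell cycle gene of the list passed in any of 139 fits, that is 28 alternatives for each comparison of 2 groups and 27 for the interaction. Of the alternative values for the members named by the rule, 530 kept their direction and their side of the threshold. The other 7 changed sign when the brightest probe set stood for the gene. They were Cenpk at −0.22 between stages in KO, 0.19 between genotypes at 6 weeks and −0.05 for the interaction, Mcm3 at −0.19 between genotypes at 6 weeks, Rrm2 at −0.08 between stages in WT and 0.09 for the interaction, and Tyms at −0.02 between stages in KO. The cause was not tested.

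The median over members between genotypes was −0.20 at 12 weeks with the brightest probe set. At 6 weeks it was −0.11 without WT replicate 4 and KO replicate 2 of 6 weeks. Leaving out 1 array at a time it ran from −0.10 to −0.02 at 12 weeks, from −0.12 (without KO replicate 2 of 6 weeks) to 0.13 at 6 weeks, from −0.20 to −0.08 between stages in KO, from −0.04 to 0.08 in WT and from −0.20 to 0.01 for the interaction. WT replicate 4 and KO replicate 2 of 6 weeks had the lowest array weights, 0.503 and 0.446. Their scores over neuron markers were −1.21 and −1.69, against −0.56 to 0.51 in the other arrays of 6 weeks. The choroid plexus score of that WT array was 3.77, against −0.76 to 0.84 in the others. The part of tissue content in the comparisons that use 6 week arrays was not tested.

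The background counts over all genes were less stable. Between genotypes at 12 weeks, 70 genes passed, against 190 with array weights, 107 with the mean of the probe sets, 233 with only the arrays of the groups compared, 42 after quantile normalization, 21 with the replicate block, 215 without WT replicate 4 and KO replicate 2 of 6 weeks, and 15 to 126 without 1 array. At 6 weeks 7 passed, against 0 with only the groups compared, 0 with the replicate block and 0 to 11 without 1 array. Between stages in KO 1 passed, against 3 with the brightest probe set, 3 with the mean, 0 with only the groups compared, 2 with the block, 0 without those 2 arrays and 1 to 5 without 1 array. Between stages in WT 3 passed, against 1, 5, 1 and 0 with the first 4 of these, and 1 to 6 without 1 array. For the interaction 0 passed, also without any 1 array. The replicate block changed no call of a member.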
